A study of Mus musculus with 2 samples.

Results

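Conventional dendritic cells (cDC) of the spleen were taken from single-cell RNA counts of 8 dpi LCMV-cl13 infected mice by a rule, so that the members were selected on measured values. A barcode, which stands for 1 droplet and usually 1 cell, was kept when the summed UMIs (unique molecular identifiers, each a captured transcript) of *Flt3*, *Zbtb46*, *Xcr1* and *Clec9a* reached 2. It also had to hold at least 10 UMIs of *H2-Aa*, none of *Siglech*, *Cd79a* or *Cd3e*, and fewer than 5 of *C1qa* and *C1qb* together. The rule kept 86 of 23397 barcodes, 51 of 14821 in PEP-WT and 35 of 8576 in PEP-619WW. Barcodes with at least 1 UMI of *Xcr1* or *Clec9a* were called cDC1, and the others were kept apart as the remaining cDC. There were 39 cDC1 and 12 remaining cDC in PEP-WT, and 19 and 16 in PEP-619WW.

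PEP-WT mice were C57BL/6 mice with the wild type *Ptpn22* gene. PEP-619WW mice were C57BL/6 mice homozygous for the R619W change in PEP, the phosphatase that *Ptpn22* encodes, which was introduced with CRISPR/Cas9 and is therefore present in every cell type. Both groups were 6 to 12 weeks old, received 1000000 PFU of LCMV-cl13 intravenously, and had 4 to 5 age- and sex-matched spleens pooled per genotype before the sort for live CD45+ cells. LCMV-cl13, a variant of lymphocytic choriomeningitis virus, sets up a persistent infection. The sample labels name liver, the Jurkat cell line and cells from a tumor, whereas the protocol in the same labels and the study's methods describe splenocytes of infected mice. Each genotype gave 1 library, so no test between genotypes was possible and no p-value is given. All intervals are at 95% and cover counting error only: exact Clopper-Pearson intervals for shares, Newcombe intervals for differences between shares, and exact Poisson intervals for sums and their ratios.

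cDC take up antigen and present it to T cells on MHC class I and class II molecules. cDC1, which depend on the transcription factors IRF8 and BATF3 and carry XCR1 and CLEC9A, are known for cross-presentation of antigen from dead cells to CD8 T cells and for production of the T cell attracting chemokines CXCL9 and CXCL10. The other large subset, cDC2, depends on IRF4 and NOTCH2 and is known for presentation to CD4 T cells. PEP acts with the kinase CSK to restrain Src family kinases, and in myeloid cells it has been linked to TRAF3 and type I interferon signaling.

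The libraries held 77916082 UMIs in PEP-WT and 56745578 in PEP-619WW, with medians of 2832 and 3293 UMIs per barcode. cDC were deeper than the average barcode. The median cDC1 held 10618 UMIs (PEP-WT) or 7194 UMIs (PEP-619WW), and the median of the remaining cDC was 9090 or 10413. The summed depth behind each value below was 439137 and 142140 UMIs in cDC1, and 122815 and 152460 UMIs in the remaining cDC. The libraries shared 39 barcode sequences, and 0 of the cDC barcodes were among them. A second pair of count tables was deposited for the same samples, in which 228 PEP-WT and 21 PEP-619WW barcodes carried UMIs of at least 3 of the 4 melanocyte genes *Pmel*, *Mlana*, *Dct* and *Tyrp1*, against 0 and 0 here. That pair held 9539 and 11029 barcodes, which are the cell numbers of the methods, so the mice and pooling described there may be those of that pair rather than of the pair used here. How the pairs relate is not stated, so the second was not taken as a replicate, and its values are given beside many results, including those named below that it turned among the 59 recomputed in it.

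The rule itself left many barcodes at its edge. Of the members, 17 in PEP-WT and 15 in PEP-619WW had a marker sum of exactly 2, and 41 and 26 barcodes outside had a sum of 1 with every other condition met. For *H2-Aa*, 5 members in each library held 10 to 12 UMIs, and 7 and 5 barcodes just outside held 7 to 9. Before the exclusions 152 and 102 barcodes passed, of which 76 and 46 carried the B cell gene *Cd79a*, 25 and 13 the T cell gene *Cd3e*, 33 and 20 too much *C1qa* and *C1qb*, and 13 and 9 *Siglech*, a marker of plasmacytoid dendritic cells (pDC). Of the cDC1, 24 in PEP-WT and 7 in PEP-619WW had both *Xcr1* and *Clec9a*. Of all cDC, 17 and 15 had any UMI of *Zbtb46*, a transcription factor of the cDC lineage.

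Summed over their barcodes, cDC1 matched their name by genes outside the rule, but part of them did not. Of the cDC1, 7 of 39 in PEP-WT and 2 of 19 in PEP-619WW held more UMIs of cDC2 markers than of cDC1 markers, and 10 and 10 had no UMI of *Xcr1*. *Irf8*, the factor cDC1 depend on, was at 1485 CPM (summed UMIs scaled to 1000000 per subset and library) in PEP-WT cDC1 and at 1583 CPM in PEP-619WW cDC1, with a UMI in 37 of 39 and 19 of 19 barcodes. *Irf8* was at 219.8 and 131.2 CPM in the remaining cDC, a ratio of cDC1 to the remaining cDC of 6.75 (4.599 to 10.3) in PEP-WT and 12.1 (7.63 to 20.1) in PEP-619WW. *Irf8* was higher still in the pDC gate, at 3418 and 3044 CPM, so its level alone did not mark cDC1. *Cd8a*, which splenic cDC1 carry on their surface, had 88 UMIs in PEP-WT cDC1 and 13 in PEP-619WW cDC1, against 2 and 0 UMIs in the remaining cDC. Of the 13 cDC1 marker genes with at least 30 UMIs, 11 were at least 2-fold higher in cDC1 in both libraries, where 1.76% of 3807 genes were. They included *Naaa*, *Ppt1*, *Tlr3*, *Cadm1* and *Itgae*, the first 2 being lysosomal enzymes, the third the receptor for double-stranded RNA, and the last 2 adhesion molecules.

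Genes were also named by how far their counting interval lay above 1 in both libraries, which favors abundant genes over those with the largest ratio. Beside *Irf8*, *Cd8a*, *Ppt1* and *Naaa*, the 10 genes so named in cDC1 were *Txn1*, *Cst3*, *Crip1*, *Mpeg1*, *Lgals3* and *Slc31a2*. *Cst3*, which encodes the protease inhibitor cystatin C, was the most abundant of them, at 18830 CPM in PEP-WT cDC1 and 13262 CPM in PEP-619WW cDC1, against 3615 and 6736 CPM in the remaining cDC. *Mpeg1*, encoding the pore-forming protein perforin-2, was 3.29-fold (2.22 to 5.08) and 2.43-fold (1.64 to 3.66) higher in cDC1. *Slc31a2*, a copper transporter relative, had 37 and 7 UMIs in cDC1 and none in the remaining cDC of either library. The division into cDC1 and the remaining cDC used *Xcr1* and *Clec9a*, so these differences describe the division and carry no test.

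The remaining cDC could not be called cDC2 as a group, and for part of them the name cDC rested on *Flt3* alone. *Flt3* made up the whole marker sum in 6 of 12 in PEP-WT and 8 of 16 in PEP-619WW. Of these PEP-WT barcodes, 1 held 332 UMIs of progenitor genes. A list of 14 general cDC genes without the selecting genes summed to 6025 and 9957 CPM. It was at 4357 and 3553 CPM in the monocyte gate and at 21253 and 16076 CPM in cDC1. Of the remaining cDC, 9 of 12 in PEP-WT and 11 of 16 in PEP-619WW held more UMIs of cDC2 markers than of cDC1 markers, but single markers were sparse. Of the 8 cDC2 marker genes with at least 30 UMIs, 2 were at least 2-fold lower in cDC1 in both libraries, *Ltb* and *S100a4*, where 1.42% of all genes were. *Irf4*, the cDC2 factor, had 3 UMIs in PEP-WT and 1 in PEP-619WW, and the lectin genes *Cd209a* and *Clec10a* had 1 to 2 UMIs in each library. *Sirpa*, which marks cDC2 and monocytes, had 8 UMIs in 5 of 12 PEP-WT barcodes and 17 UMIs in 9 of 16 PEP-619WW barcodes. *S100a4*, a calcium-binding protein gene that monocytes also use, was at 2272 and 1469 CPM, against 719.6 and 591.0 CPM in cDC1. The other genes whose interval lay farthest below 1 in cDC1 in both libraries were *Ffar2*, *Il1r2*, *Myc*, *Mdh2*, *Ifi27*, *Mycbp2*, *Nfam1*, *Akap13* and *Ifi203*, the last at 0.547 and 0.523 and so not at least 2-fold lower. *Ffar2*, a receptor for short-chain fatty acids, was at 0.190 (0.0964 to 0.366) and 0.244 (0.109 to 0.492) of its level in the remaining cDC, and *Il1r2*, the decoy receptor for interleukin-1, at 0.155 (0.0409 to 0.516) and 0.126 (0.0141 to 0.532).

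**Figure D1:**
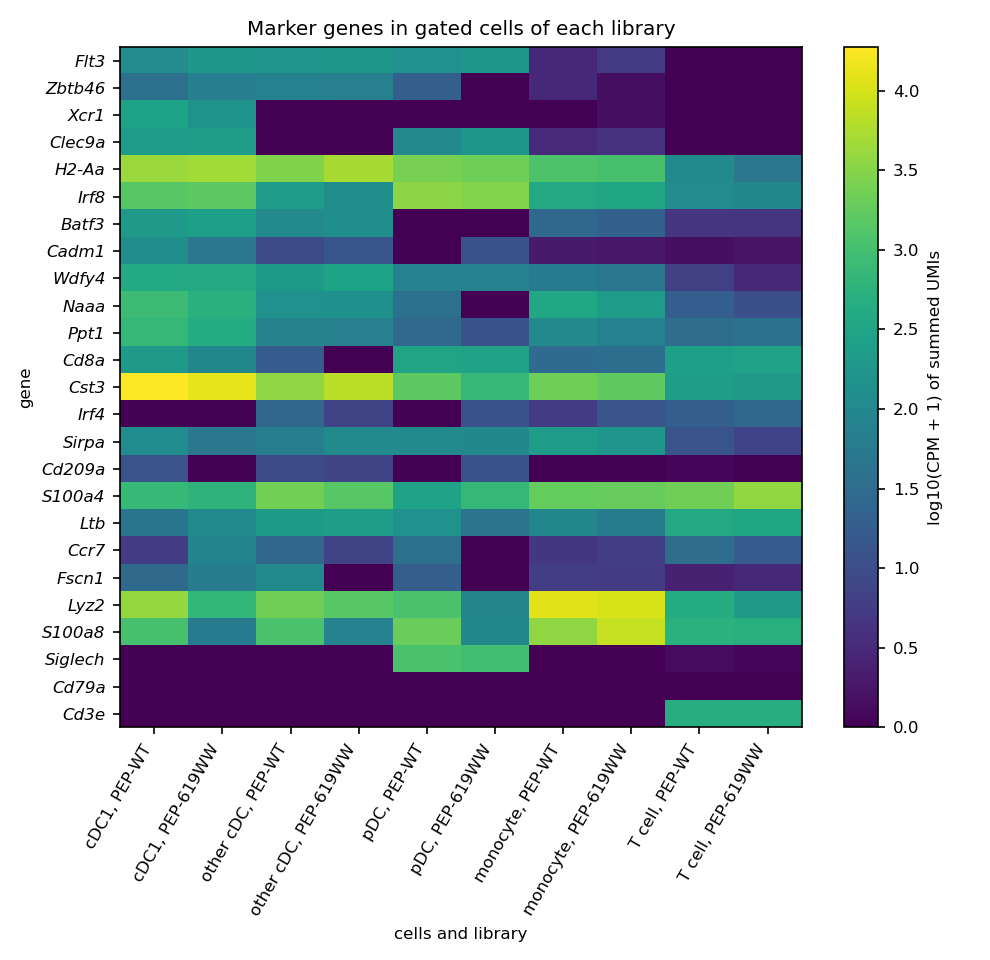
Levels of 25 marker genes (rows) in cDC1, the remaining cDC ("other cDC") and 3 comparison gates of each library (columns), as log10(CPM + 1) of the UMIs summed over barcodes. *Xcr1* and *Irf8* were high in cDC1, *Irf8* was higher still in pDC, *Irf4* and *Cd209a* were near 0 in the remaining cDC, and *Lyz2* and *S100a8*, genes of monocytes and neutrophils, were high in PEP-WT cDC1.

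*Clec9a* did not separate cDC1 from every other cell. It had a UMI in 34 of 39 PEP-WT cDC1 and 17 of 19 PEP-619WW cDC1. In the pDC gate it had a UMI in 8 of 21 and 6 of 12 barcodes (median 4769 and 6998.5 UMIs). *Xcr1* had a UMI in 29 of 39 PEP-WT cDC1 but in 9 of 19 PEP-619WW cDC1, and in 0 barcodes of the pDC gate. The T cell gate required that neither gene had a UMI, so it gives no comparison here. Both genes were part of the rule, so these shares are a description.

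Some cDC barcodes carried genes of other cell types, and they were unequally split between the libraries. At least 10 UMIs of *Lyz2* and *Chil3*, of neutrophil, progenitor or erythroid genes, or of T and NK cell genes were present in 14 of 39 PEP-WT cDC1 and 3 of 19 PEP-619WW cDC1, and in 5 of 12 and 3 of 16 remaining cDC. This limit was not scaled to depth, so deeper barcodes could reach it more easily. The median cDC1 was deeper in PEP-WT, at 10618 against 7194 UMIs, and the median of the remaining cDC in PEP-619WW, at 10413 against 9090. Neutrophil markers summed to 1301 UMIs in PEP-WT cDC1 and 22 in PEP-619WW cDC1, with 7 and 4 of the 8 genes detected and barcodes from 0 to 65315 CPM and from 0 to 1669 CPM. *Ly6g*, which defines neutrophils, had 2 and 0 UMIs there. *S100a8* had 473 UMIs in PEP-WT cDC1, 332 of them in 1 barcode, and 8 UMIs in PEP-619WW cDC1. Monocyte markers were detected for 10 of 11 genes in cDC1 of both libraries, at 10785 and 7584 CPM, with barcodes from 104.8 to 37013 CPM and from 232.5 to 24793 CPM.

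*Lyz2*, encoding the lysozyme of phagocytes, had 1716 UMIs in 18 of 39 PEP-WT cDC1 and 96 UMIs in 6 of 19 PEP-619WW cDC1, and *Chil3*, encoding a chitinase-like protein of myeloid cells, had 549 and 3 UMIs. Other genes of the monocyte list went the other way, and of its 9 genes with at least 30 UMIs in cDC1 4 were above 1. *Plac8*, one of them, was at 1.45 (1.33 to 1.59) in cDC1. The median barcode held 3765 CPM of the list in PEP-WT cDC1 and 4553 CPM in PEP-619WW cDC1, and 3691 and 5841 CPM in the remaining cDC. Without the barcodes of mixed genes, which were chosen partly by *Lyz2* and *Chil3*, the list was at 1.66 (1.47 to 1.88) in cDC1 and 1.57 (1.33 to 1.86) in the remaining cDC. The progenitor genes had, in the remaining cDC, 334 UMIs in PEP-WT, 332 of them in 1 barcode, and 11 in PEP-619WW, including *Ctsg* with 126 UMIs and *Mpo* with 82 UMIs, each in 1 PEP-WT barcode and with none in PEP-619WW. In cDC1 the progenitor genes had 106 and 69 UMIs, 81 and 64 of them in 1 barcode of each library, a ratio of 2.01 (1.46 to 2.75) in the other direction. The neutrophil genes of the remaining cDC had 485 and 26 UMIs, and its T cell and NK cell genes 25 and 28 UMIs in PEP-WT and 3 and 3 in PEP-619WW. The B cell genes had 15 and 12 UMIs in cDC1 and 6 and 13 in the remaining cDC, the macrophage genes 109 and 25 in cDC1 and 29 and 23 in the remaining cDC, and the plasma cell genes 40 and 11 in cDC1 and 12 and 22 in the remaining cDC. *Ncr1*, an NK cell gene, *Gzma*, a gene of NK and effector T cells, and *Klk1*, a pDC gene, had 0 UMIs in every cDC group. Whether these barcodes hold a doublet, free RNA or a cell between lineages was not tested. Leaving them out left 25 and 16 cDC1 and 7 and 13 remaining cDC, and the values without them are given beside the main lists and many genes. The cDC1 left held 183812 of 439137 UMIs in PEP-WT and 102789 of 142140 in PEP-619WW. For the remaining cDC these were 48166 of 122815 and 123237 of 152460. The barcodes left out were on average deeper than those kept in both subsets of PEP-WT and in PEP-619WW cDC1. The values without them thus also rest on shallower barcodes. Of the 97 list genes whose interval excluded 1 in cDC1, 78 still had at least 10 UMIs without these barcodes, and of those 39 stayed on their side of 1 with an interval that excluded it, 31 stayed with an interval that included it and 8 lay on the other side. Of 89 such genes in the remaining cDC, 67 still had 10 UMIs, and 32, 33 and 2 fell in these classes.

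The interval of the difference in cDC share between genotypes included 0, and the share of cDC1 among the cDC was lower in PEP-619WW, with an interval that excluded 0 under some settings of the rule and not under others. cDC were 0.344% (0.256 to 0.452) of the barcodes in PEP-WT and 0.408% (0.284 to 0.567) in PEP-619WW, a difference of 0.0640 percentage points (-0.0934 to 0.243). cDC1 were 0.263% (0.187 to 0.360) and 0.222% (0.133 to 0.346) of barcodes. The remaining cDC were 0.0810% (0.0418 to 0.141) and 0.187% (0.107 to 0.303), a difference of 0.106 points (0.0118 to 0.227). Of all cDC, cDC1 were 76.5% (62.5 to 87.2) in PEP-WT and 54.3% (36.6 to 71.2) in PEP-619WW, a difference of -22.2 points (-40.9 to -2.00). The difference was below 0 in all 11 alternatives that recomputed it, from -33.3 to -10.3 points, but its interval included 0 in 7 of them. Those 7 were a marker sum of at least 1 (-29.6 to 1.66) or of at least 3 (-33.7 to 10.4), *H2-Aa* of at least 5 (-31.8 to 3.36), leaving out the highest scores of the doublet caller Scrublet (-39.9 to 0.595) or the barcodes of mixed genes (-43.6 to 0.592), thinning (-75.3 to 13.1) and the other deposited pair (-28.7 to 3.46). With *Xcr1* alone as the cDC1 marker, 29 of 51 (56.9%) and 9 of 35 (25.7%) cDC were cDC1. When every barcode was thinned to 2000 UMIs, 18 of 10640 barcodes still passed the rule in PEP-WT and 2 of 6147 in PEP-619WW, a difference of -0.137 points (-0.238 to -0.0305) on the other side of 0. That setting also left out the 4181 and 2429 barcodes with fewer than 2000 UMIs. The other deposited pair had 36 of 9539 (0.377%) and 335 of 11029 (3.04%) barcodes passing it.

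**Figure D2:**
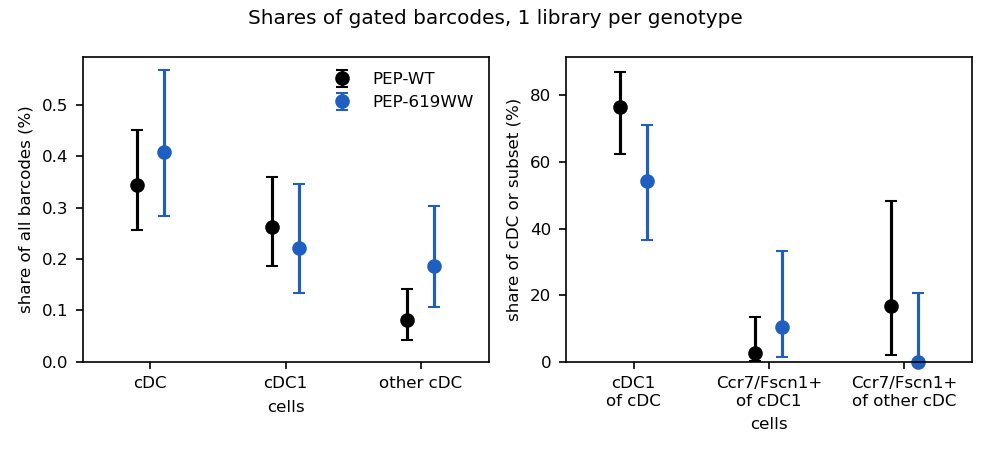
Shares of barcodes in percent with exact 95% binomial intervals, PEP-WT in black and PEP-619WW in blue. The left panel gives cDC, cDC1 and the remaining cDC ("other cDC") as a share of all barcodes, and the right panel gives cDC1 as a share of cDC and the barcodes with at least 2 UMIs of *Ccr7* and *Fscn1* as a share of each subset. The intervals of the libraries overlap in every pair shown.

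Mature cDC, which move to T cell zones with the chemokine receptor CCR7 and the actin-bundling protein fascin, were rare. At least 2 UMIs of *Ccr7* and *Fscn1* were found in 1 of 39 PEP-WT cDC1 and 2 of 19 PEP-619WW cDC1, a difference of 7.96 points (-5.09 to 28.9), and in 2 of 12 and 0 of 16 remaining cDC, a difference of -16.7 points (-44.8 to 6.096). The 0 of 16 allows a share of up to 20.6% by the exact interval. Of the 2 PEP-619WW cDC1, 1 had 2 UMIs of *Ccr7*, none of *Fscn1* and 11 of the mature cDC genes among 22110. It also held 64 progenitor and 418 cell cycle UMIs, so this limit alone did not mark a mature cDC. The setting without mature barcodes, used below, left out every barcode that passed this limit, this one included. The summed list of 18 mature cDC genes was 4.12-fold (3.57 to 4.76) higher in PEP-619WW cDC1 and at 0.351 (0.278 to 0.440) of PEP-WT in the remaining cDC. Single barcodes held much of both sums. *Ccl5*, a chemokine gene of this list, had 20 UMIs in 9 of 39 PEP-WT cDC1 and 313 UMIs in 4 of 19 PEP-619WW cDC1, and 310 of the 313 were in 1 barcode, which also held 10 UMIs of *Ccr7* and 8 of *Fscn1*. *Ccl5* in the remaining cDC had 100 UMIs in PEP-WT, 83 of them in 1 barcode, and 10 UMIs in PEP-619WW. That PEP-WT barcode also held 24 T cell, 11 NK cell and 220 neutrophil UMIs, so it was among the barcodes of mixed genes. The *Ccl5* ratio in the remaining cDC was 0.0806 (0.0375 to 0.154). It turned to 2.498 (2.12 to 2.97) in the other tables and to 2.77 (2.23 to 3.46) with *Xcr1* alone as the cDC1 marker.

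Across genes with at least 30 UMIs, more were at least 2-fold lower than higher in PEP-619WW cDC1, a balance that turned in the other deposited tables, where PEP-619WW held more of the cDC1. The minimum was summed over 439137 UMIs in PEP-WT cDC1 and 142140 in PEP-619WW cDC1. A gene could thus pass it at a lower CPM in PEP-WT, so the counts of higher and lower genes are not on an equal footing. Of 2688 genes with at least 30 UMIs over both libraries, 73 (2.72%) were at least 2-fold higher and 206 (7.66%) at least 2-fold lower in PEP-619WW cDC1. Without the barcodes carrying genes of another cell type, 47 (3.79%) and 67 (5.40%) of 1241 genes were. Among the remaining cDC, 73 (5.34%) of 1368 genes were at least 2-fold higher and 87 (6.36%) at least 2-fold lower, and without those barcodes 35 (4.59%) and 40 (5.25%) of 762. The counting interval excluded 1 for 67 of the 73 higher and 131 of the 206 lower genes in cDC1, and for 64 and 81 genes in the remaining cDC. At any fold, the interval lay above 1 for 191 genes (7.11%) and below 1 for 241 (8.97%) in cDC1. In the remaining cDC these were 146 (10.7%) and 183 (13.4%). The counts in cDC1 were near equal with a marker sum of at least 1, at 157 higher and 163 lower. Of the genes in the other deposited tables, 910 were at least 2-fold higher and 88 lower in cDC1, and 1256 and 250 in the remaining cDC. Those tables held 22 PEP-WT and 159 PEP-619WW cDC1, and 14 and 176 remaining cDC. With far more PEP-619WW barcodes, a gene could pass the minimum there at a lower CPM in PEP-619WW. The counts of the 2 pairs of tables are therefore not on an equal footing, and no share of all genes is given beside those of the other tables.

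Interferon-stimulated genes were lower in PEP-619WW cDC1. These genes are induced by type I interferon through its receptor and limit virus replication. The list of 57 genes summed to 12506 CPM in PEP-WT cDC1 and 9484 CPM in PEP-619WW cDC1, a ratio of 0.758 (0.714 to 0.805). With *Xcr1* alone as the cDC1 marker it was 0.415 (0.361 to 0.476). Of its 44 genes with at least 30 UMIs, 0 were at least 2-fold higher and 10 at least 2-fold lower, with a median ratio of 0.708, where the background shares were 2.72% and 7.66%. The median over all 2688 genes was -0.08 on the log2 scale. Per barcode the list ranged from 4473 to 34350 CPM with a median of 9525 CPM in PEP-WT cDC1, and from 1479 to 18350 CPM with a median of 5838 CPM in PEP-619WW cDC1, so the libraries overlapped.

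Without the barcodes carrying genes of another cell type the ratio of the list in cDC1 was 0.877 (0.807 to 0.953), and of the 18 genes that still had at least 30 UMIs 2 were at least 2-fold higher and 2 at least 2-fold lower, beside 3.79% and 5.40% of all genes. In the other deposited tables it was 1.22 (1.13 to 1.31), the opposite direction. The list was at 0.916 (0.854 to 0.983) in the remaining cDC, with 1 of 28 genes at least 2-fold higher and 4 at least 2-fold lower, beside 5.34% and 6.36% of all genes. There the ratio was 0.923 (0.834 to 1.02) without the barcodes of mixed genes, an interval that included 1, and 1.66 (1.48 to 1.86) in the other tables. It was 0.547 (0.523 to 0.572) with a marker sum of at least 1, and it turned to 1.11 (1.04 to 1.19) with *H2-Aa* of at least 5. The ratio in the comparison gates of the same libraries was 0.754 (0.707 to 0.805) in pDC, 0.563 (0.555 to 0.571) in monocytes and 0.744 (0.735 to 0.753) in T cells.

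Single interferon-stimulated genes differed in how far they held. *Irf7*, the factor that amplifies interferon production, had 213 UMIs in 33 of 39 PEP-WT cDC1 and 28 UMIs in 12 of 19 PEP-619WW cDC1, a ratio of 0.406 (0.264 to 0.604). It was at 0.447 (0.273 to 0.705) without the barcodes of mixed genes and at 0.730 (0.447 to 1.25) in the other tables. *Isg15*, a ubiquitin-like modifier, had 242 UMIs in 32 of 39 barcodes and 37 UMIs in 8 of 19, a ratio of 0.472 (0.325 to 0.670), which was 0.862 (0.524 to 1.39) without the barcodes of mixed genes. *Ifit3*, whose protein takes part in binding foreign RNA, had 43 and 2 UMIs, and *Rsad2*, encoding the antiviral enzyme viperin, 32 and 2 UMIs, with ratios of 0.144 (0.0169 to 0.552) and 0.193 (0.0224 to 0.757). *Ifit3* had 8 and 2 UMIs without the barcodes of mixed genes, a ratio of 0.447 (0.0462 to 2.24), and *Rsad2* fewer than 10 UMIs in all. *Irf9*, a transcription factor of the interferon response, was at 1.59 (0.831 to 2.94), an interval that included 1. Among the remaining cDC, *Bst2*, encoding the virus-tethering protein tetherin, was at 0.492 (0.345 to 0.696), and *Isg15* was at 0.685 (0.473 to 0.990), while the other tables gave 4.37 (2.28 to 9.60) for *Isg15*.

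Promoters of these genes are shown because the genes are named for their response to interferon, which acts through a short repeated motif. The motif searched was GAAA followed, after any 2 bases, by GAAA, on both strands in the 250 bases before to 50 after each gene's start (RefSeq, GRCm38.p6), and 1079 of 27025 promoters (3.99%) held it. For the gene lists no share is given, since the promoter table covered 33 of the 44 interferon-stimulated genes and 17 of the 23 interferon gamma-induced genes tested, fewer than 80%. Each window of 60 bases is written 5′ to 3′ on the strand of the gene, with the matches in capitals. The promoters shown were picked from genes at least 2-fold lower in PEP-619WW cDC1 that held a match. Other lower genes of these lists, such as *Ifit2*, *Isg20* and *Irf1*, held none. Many genes of the lists that were not at least 2-fold lower held a match too, among them *Bst2*, *Stat2*, *Oas3* and *Gbp5*, so the choice shown says nothing on how matches were spread. A match is a description of these letters and shows neither binding nor a cause.
*Isg15*, chr4:156200857-156200916, minus strand: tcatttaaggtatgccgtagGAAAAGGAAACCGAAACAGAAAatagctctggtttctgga
*Rsad2*, chr12:26456533-26456592, minus strand: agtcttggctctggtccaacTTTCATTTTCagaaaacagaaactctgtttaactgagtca
*Cxcl10*, chr5:92349063-92349122, minus strand: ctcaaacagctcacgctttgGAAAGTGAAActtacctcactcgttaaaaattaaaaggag
*Gbp2*, chr3:142620584-142620643, plus strand: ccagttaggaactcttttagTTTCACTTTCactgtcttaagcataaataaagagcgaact
In the *Isg15* promoter 3 overlapping matches lay together, the first 78 bases before the start, and the other promoters held 1 match in the window, 120 bases before the start in *Rsad2*, 213 in *Cxcl10* and 59 in *Gbp2*.

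Genes induced by interferon gamma were lower in PEP-619WW cDC1 and higher in the remaining cDC of PEP-619WW, but not under every setting of the rule. Interferon gamma comes from T and NK cells and raises chemokines, GTPases against intracellular microbes and antigen presentation. In cDC1 the list of 34 genes was at 8155 CPM in PEP-WT and 6170 CPM in PEP-619WW, a ratio of 0.757 (0.702 to 0.815), and of 23 genes 0 were at least 2-fold higher and 11 at least 2-fold lower, beside 2.72% and 7.66% of all genes, with a median of 0.594. It was at 5024 and 6625 CPM in the remaining cDC, a ratio of 1.32 (1.19 to 1.46), and of 16 genes 5 were at least 2-fold higher and 0 lower, beside 5.34% and 6.36%. Without the barcodes of mixed genes the ratios were 0.796 (0.727 to 0.870) and 1.25 (1.08 to 1.46), and 1 of 14 genes in cDC1 was then at least 2-fold lower, beside 5.40% of all genes. The other tables gave 0.992 (0.930 to 1.06) and 1.11 (0.982 to 1.25). With a marker sum of at least 1 both subsets lay below 1, at 0.728 (0.689 to 0.769) and 0.833 (0.783 to 0.886).

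*Cxcl9*, the chemokine that draws CXCR3-bearing T cells, was the gene of this list with the most UMIs that was at least 2-fold lower in PEP-619WW cDC1. It had 321 UMIs in 28 of 39 PEP-WT cDC1 and 37 UMIs in 7 of 19 PEP-619WW cDC1, or 731.0 and 260.3 CPM, with at most 49 and 11 UMIs in 1 barcode. The ratio was 0.356 (0.246 to 0.501), and it was 0.205 (0.132 to 0.305) without the barcodes of mixed genes and 0.470 (0.369 to 0.603) in the other tables. *Cxcl9* in the remaining cDC had 4 UMIs in PEP-WT and 21 in PEP-619WW, 17 of them in 1 barcode, so the ratio of 4.23 (1.43 to 16.9) there rested on 1 cell. The other tables gave 0.113 (0.0666 to 0.194) for the remaining cDC, the opposite direction, as did a marker sum of at least 1, at 0.368 (0.264 to 0.506). *Cxcl9* was at 195.7 and 96.8 CPM in the monocyte gate and at 15.4 and 4.29 CPM in the T cell gate.

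*Cxcl10*, a chemokine for the same receptor, had 69 UMIs in 13 of 39 PEP-WT cDC1 and 0 in PEP-619WW cDC1. At a floor of 3 UMIs, or 21.1 CPM, it would be 7.44-fold lower, and the interval of its ratio reached up to 0.170. In the other tables *Cxcl10* was at 1.23 (0.289 to 11.03), on the other side of 1 with an interval that included 1. Among the guanylate-binding proteins, *Gbp2* had 169 UMIs in 27 of 39 PEP-WT cDC1 and 25 UMIs in 9 of 19 PEP-619WW cDC1, a ratio of 0.457 (0.288 to 0.698). That ratio turned to 1.28 without the barcodes of mixed genes and to 1.61 (0.586 to 6.20) in the other tables. *Gbp7* had 57 and 3 UMIs, a ratio of 0.163 (0.0326 to 0.4998), and fewer than 10 UMIs in all without the barcodes of mixed genes. *Igtp*, an immunity-related GTPase, was at 0.262 (0.0820 to 0.646) and *Irf1*, a factor induced by interferon gamma, at 0.390 (0.201 to 0.697), and without the barcodes of mixed genes they were at 0.511 (0.122 to 1.63) and 0.596 (0.282 to 1.17).

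In the remaining cDC the members of the list at least 2-fold higher in PEP-619WW included *Gbp2*, with 25 and 80 UMIs and a ratio of 2.58 (1.63 to 4.22), *Gbp4*, with 10 and 38 UMIs and a ratio of 3.06 (1.497 to 6.89), and *Gbp5*, with 10 and 32 UMIs and a ratio of 2.58 (1.24 to 5.88). These were at 1.76 (0.804 to 4.38), 4.30 (1.35 to 21.9) and 2.996 (0.905 to 15.6) without the barcodes of mixed genes. *Fgl2*, which encodes a fibrinogen-like protein that suppresses T cells when secreted, was the gene farthest above 1 by its counting interval there. It had 22 UMIs in 8 of 12 PEP-WT barcodes and 112 UMIs in 14 of 16 PEP-619WW barcodes, a ratio of 4.10 (2.58 to 6.81), and 3.09 (1.65 to 6.42) without the barcodes of mixed genes. *Fgl2* was also higher in PEP-619WW cDC1, with 130 UMIs in 30 of 39 and 83 UMIs in 13 of 19 barcodes, a ratio of 1.97 (1.48 to 2.62). The other tables gave the opposite direction for *Fgl2* in both subsets, 0.851 (0.666 to 1.10) in cDC1 and 0.822 (0.474 to 1.54) in the remaining cDC.

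**Figure D3:**
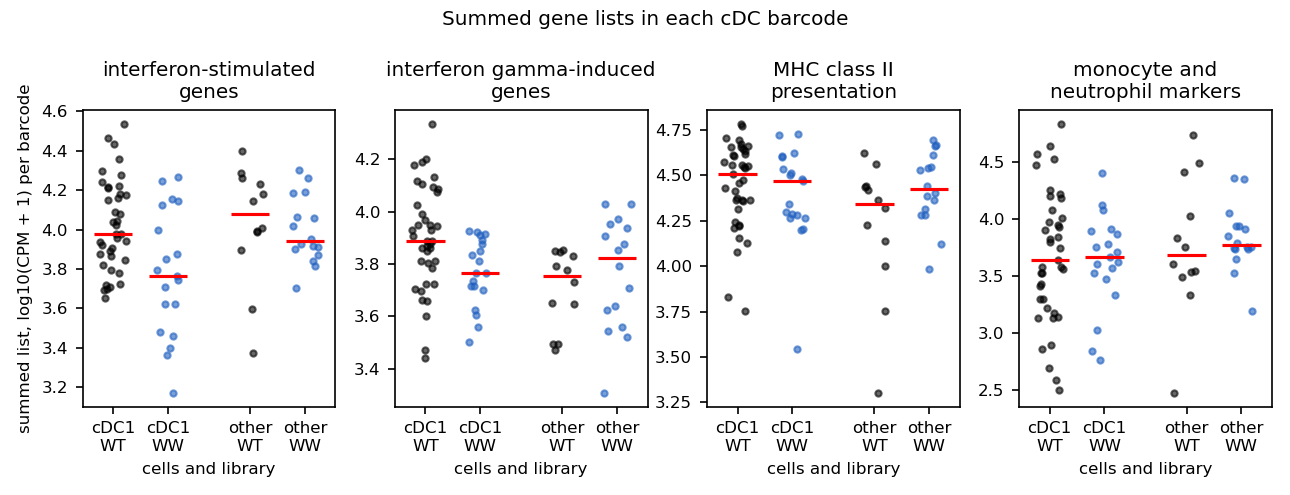
Summed UMIs of 4 gene groups in each cDC barcode as log10(CPM + 1), 1 point per barcode, with a red line at the median, PEP-WT (WT) in black and PEP-619WW (WW) in blue. The interferon-stimulated genes had medians of 9525 CPM in PEP-WT cDC1 and 5838 CPM in PEP-619WW cDC1, all groups overlapped, and several PEP-WT barcodes stood high in monocyte and neutrophil markers.

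MHC class II genes were higher in the remaining cDC of PEP-619WW by an amount that depended on the setting. In cDC1 they lay on either side of 1 depending on the setting. These genes encode the molecules that show peptides to CD4 T cells, and *H2-Aa* was left out of the list because the rule used it. The 13 genes summed to 25812 CPM in PEP-WT cDC1 and 23625 CPM in PEP-619WW cDC1, a ratio of 0.915 (0.880 to 0.951), and to 15015 and 27647 CPM in the remaining cDC, a ratio of 1.84 (1.74 to 1.95). The median barcode of the remaining cDC was closer between libraries, at 22081 and 26494 CPM. Of the PEP-WT barcodes there, 2 with only 10 and 11 UMIs of *H2-Aa* held 62 and 89 UMIs of the list among 31034 and 15728, and so lowered the PEP-WT sum. Of 10 genes in the remaining cDC, 2 were at least 2-fold higher and 0 lower, beside 5.34% and 6.36% of all genes, and in cDC1 1 of 10 was higher and 0 lower, beside 2.72% and 7.66%. Without the barcodes of mixed genes the ratios were 0.670 (0.640 to 0.701), with 8 of 8 genes below 1, and 1.14 (1.06 to 1.22), and the other tables gave 1.09 (1.07 to 1.12) and 1.14 (1.09 to 1.18). The cDC1 value also turned to 1.06 (1.02 to 1.10) without mature barcodes. That setting left out the PEP-619WW barcode with 64 progenitor UMIs, which held 77 UMIs of this list among 22110. The cDC1 value turned to 1.04 (0.994 to 1.08) with *H2-Aa* of at least 20, and it was 0.960 (0.905 to 1.02) with *Xcr1* alone as the marker. A marker sum of at least 3 put the remaining cDC at 1.07 (0.984 to 1.17). They were at 2.69 with *H2-Aa* of at least 5 and at 1.15 with at least 20, so the value moved with the threshold that selected the barcodes. In the same libraries the list was at 0.758 (0.697 to 0.823) in pDC, 0.845 (0.830 to 0.861) in monocytes and 0.550 (0.524 to 0.577) in T cells.

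*H2-Ab1*, the class II beta chain, had 345 UMIs in 12 of 12 PEP-WT and 1042 UMIs in 16 of 16 PEP-619WW remaining cDC, a ratio of 2.43 (2.15 to 2.76). It was at 1.53 (1.31 to 1.79) without the barcodes of mixed genes and at 1.13 (1.03 to 1.23) in the other tables. *Cd74*, the invariant chain that guards the class II groove, had 760 and 1706 UMIs, a ratio of 1.81 (1.66 to 1.97), which was 1.04 (0.935 to 1.15) without those barcodes. *H2-Eb1*, another class II beta chain, was at 2.05 (1.81 to 2.32), at 1.39 (1.18 to 1.64) without those barcodes and at 0.910 (0.842 to 0.984) in the other tables. In cDC1 *H2-Ab1* was at 0.915 (0.847 to 0.988), against 1.06 (1.01 to 1.11) in the other tables and 1.07 to 1.12 under the 3 cDC1 settings just named, and *Cd74* at 0.935 (0.880 to 0.992), while *Ctss*, the protease cathepsin S that trims the invariant chain, was at 0.547 (0.414 to 0.714). MHC class I genes, which serve presentation to CD8 T cells, were at 0.918 (0.874 to 0.963) in cDC1 and 0.996 (0.938 to 1.06) in the remaining cDC, and 0 of 22 and 0 of 19 genes passed 2-fold in either direction, beside the shares of all genes given with class II. For the list in cDC1 the other tables gave 1.02 (0.983 to 1.07). Among them, *H2-D1* was at 0.762 (0.667 to 0.867) in cDC1, *B2m* at 1.08 (0.9497 to 1.23), and *Tap1*, the peptide transporter, at 1.34 (1.01 to 1.77), which was 1.13 (0.785 to 1.62) without the barcodes of mixed genes.

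Costimulatory and inhibitory ligands were sparse. These decide, with the peptide, whether a T cell is activated or held back. Their list was at 0.757 (0.631 to 0.902) in cDC1, where 0 of 9 genes were at least 2-fold higher and 3 lower (2.72% and 7.66% of all genes), and at 0.824 (0.665 to 1.02) in the remaining cDC, where 0 of 2 passed 2-fold (5.34% higher and 6.36% lower of all genes). In the other tables the list was at 1.13 (1.01 to 1.28) in cDC1, the opposite direction. *Cd86*, a ligand of CD28, had 43 UMIs in 23 of 39 PEP-WT cDC1 and 5 UMIs in 5 of 19 PEP-619WW cDC1, a ratio of 0.359 (0.111 to 0.905). As a mean over barcodes, in which each cell counts the same, the *Cd86* ratio was 0.997, and without the barcodes of mixed genes the ratio of sums was 0.389 (0.115 to 1.05). *Cd86* in the remaining cDC had 4 UMIs in 2 of 12 and 11 UMIs in 8 of 16 barcodes, a ratio of 2.22 (0.656 to 9.54). It was at 35.02 and 26.5 CPM in the monocyte gate.

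*Cd40*, the receptor through which CD4 T cells license cDC, had 37 and 4 UMIs in cDC1, a ratio of 0.334 (0.0865 to 0.930), 0.358 (0.0889 to 1.07) without the barcodes of mixed genes and 1.18 (0.586 to 2.69) in the other tables. *Lgals9*, encoding galectin-9, had 72 UMIs in PEP-WT cDC1, 30 of them in 1 barcode, and 7 UMIs in PEP-619WW cDC1, a ratio of 0.300 (0.117 to 0.651), and 11 and 4 UMIs without the barcodes of mixed genes, a ratio of 0.650 (0.151 to 2.19). *Cd274*, encoding the inhibitory ligand PD-L1, had 26 UMIs in 13 of 39 and 12 UMIs in 3 of 19 cDC1, 10 of the 12 in 1 barcode. Its ratio was 1.43 (0.655 to 2.93) in cDC1 and 1.13 (0.466 to 2.84) in the remaining cDC, where it had 10 and 14 UMIs. The cDC1 ratio was 0.397 (0.0418 to 1.92) without the barcodes of mixed genes and 2.33 (1.03 to 5.06) without mature barcodes, and with *Xcr1* alone as the cDC1 marker PEP-619WW had 0 UMIs. These few UMIs gave no direction for *Cd274* that held across the settings.

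**Figure D4:**
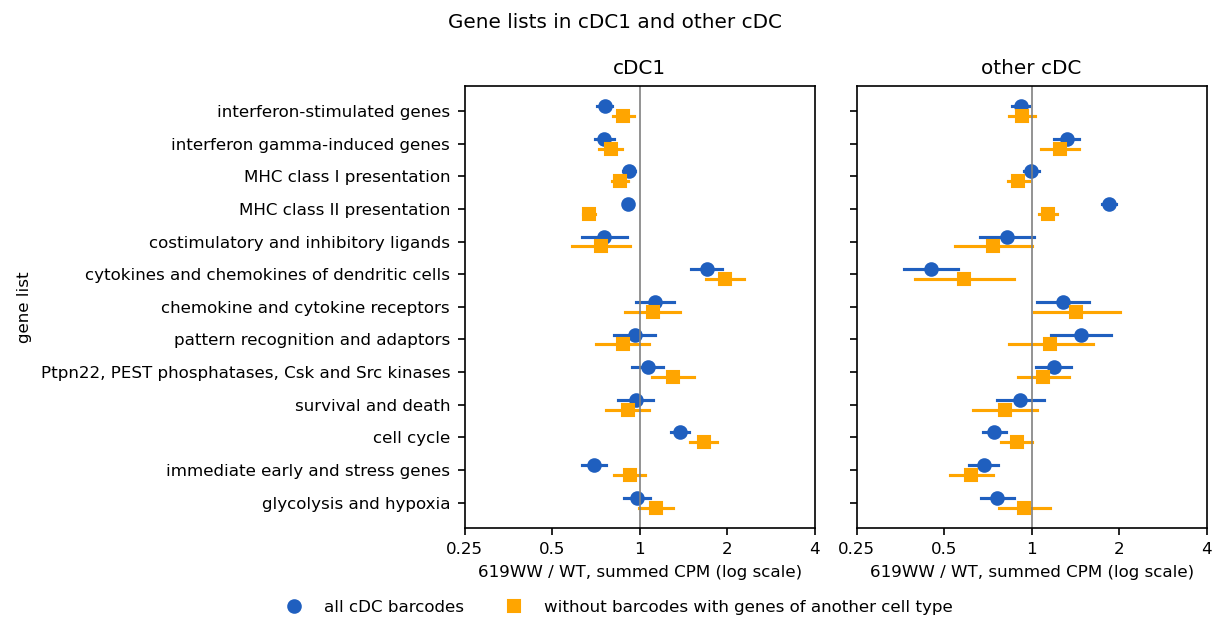
Ratio of PEP-619WW to PEP-WT summed CPM, on a log scale, for 13 gene lists in cDC1 (left) and the remaining cDC (right), with all cDC barcodes as blue circles and without barcodes carrying genes of another cell type as orange squares. Bars are 95% counting intervals, and the gray line marks 1. The interferon-stimulated list lay at 0.758 in cDC1, and MHC class II at 1.84 in the remaining cDC, which moved to 1.14 without the mixed barcodes.

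Cytokines and chemokines of dendritic cells, a list of 29 genes, were at 1.70 (1.502 to 1.92) in cDC1 and 0.451 (0.363 to 0.558) in the remaining cDC. In the remaining cDC, 122 of the 243 PEP-WT UMIs were in 1 barcode, which also held 24 T cell and 220 neutrophil UMIs. The cDC1 value rested on the 1 barcode with *Ccl5*, and the median over its 7 genes was 0.466, on the other side of 1. Of these 7 genes 1 was at least 2-fold higher and 4 lower, beside 2.72% and 7.66% of all genes. *Tgfb1*, encoding the suppressive cytokine TGF-beta, had 73 and 11 UMIs in cDC1, a ratio of 0.466 (0.223 to 0.883), and 0.406 (0.120 to 1.10) without the barcodes of mixed genes. *Il1b*, encoding interleukin-1 beta, had 56 UMIs in 6 of 39 PEP-WT cDC1 and 1 UMI in PEP-619WW cDC1, and 42 and 1 in the remaining cDC. Both subsets of PEP-WT also held the larger neutrophil gene sums given above.

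Receptors for chemokines and cytokines were at 1.13 (0.973 to 1.31) in cDC1 and 1.28 (1.05 to 1.57) in the remaining cDC. *Il10ra*, the receptor for interleukin-10, had 52 UMIs in 19 of 39 and 6 UMIs in 6 of 19 cDC1, a ratio of 0.356 (0.125 to 0.830), and 4 and 19 UMIs in the remaining cDC, a ratio of 3.83 (1.27 to 15.5). *Csf2ra*, the GM-CSF receptor alpha chain, had 10 and 40 UMIs in the remaining cDC, a ratio of 3.22 (1.58 to 7.23). Without the barcodes of mixed genes *Il10ra* was at 0.421 (0.103 to 1.29) and 2.93 (0.682 to 26.4), and *Csf2ra* in the remaining cDC at 2.87 (0.861 to 14.96), intervals that included 1. Pattern recognition receptors and their adaptors were at 0.962 (0.814 to 1.13) in cDC1 and 1.48 (1.17 to 1.87) in the remaining cDC, the latter at 1.16 (0.837 to 1.62) without the barcodes of mixed genes. *Tlr3* had 22 and 13 UMIs in cDC1, a ratio of 1.83 (0.845 to 3.79). *Unc93b1*, which carries the nucleic acid sensing Toll-like receptors to endosomes, was at 1.08 (0.767 to 1.5004).

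*Ptpn22* itself, which carries the changed codon but is not deleted, was low in cDC of both genotypes. It had 16 UMIs in 13 of 39 PEP-WT cDC1 and 8 UMIs in 5 of 19 PEP-619WW cDC1, a ratio of 1.54 (0.572 to 3.83), and 9 UMIs in 4 of 12 and 14 UMIs in 9 of 16 remaining cDC, a ratio of 1.25 (0.505 to 3.28). Counts per gene do not show the changed codon, so they do not check the genotype. *Ptpn22*, the related phosphatases, *Csk* and the Src kinases formed a list that was at 1.07 (0.941 to 1.21) in cDC1 and 1.19 (1.04 to 1.37) in the remaining cDC, with 0 of 11 and 0 of 7 genes past 2-fold in either direction, beside 2.72% higher and 7.66% lower of all genes in cDC1 and 5.34% and 6.36% in the remaining cDC. It was at 1.30 (1.10 to 1.53) and 1.10 (0.897 to 1.35) without the barcodes of mixed genes. *Csk*, the kinase PEP binds, was at 1.13 (0.630 to 1.94) and 1.55 (0.763 to 3.298). *Lyn*, a Src family kinase that also has inhibitory roles, was at 0.781 (0.471 to 1.24) in cDC1.

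*Ccnd2*, encoding the G1 cyclin D2, was higher in PEP-619WW in both subsets. In cDC1 it had 55 UMIs in 19 of 39 PEP-WT barcodes and 70 UMIs in 11 of 19 PEP-619WW barcodes, with at most 7 and 23 in 1 barcode, a ratio of 3.93 (2.72 to 5.70). The remaining cDC had 26 *Ccnd2* UMIs in 7 of 12 and 96 UMIs in 13 of 16 barcodes, with at most 5 and 15 in 1 barcode, a ratio of 2.97 (1.91 to 4.78). *Ccnd2* lay on the same side of 1 without the barcodes of mixed genes, at 4.40 (2.69 to 7.39) and 1.75 (1.05 to 3.05), and in the other tables, at 2.13 (1.503 to 3.11) and 2.36 (1.49 to 3.94).

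The cell cycle list did not follow *Ccnd2* in both subsets. It was at 1.38 (1.28 to 1.48) in cDC1, with 4 of 21 genes at least 2-fold higher, 0 lower and a median of 1.51, beside 2.72% and 7.66% of all genes. The 2 PEP-619WW barcodes with the most held 796 of the 1119 UMIs, and the median barcode went the other way, at 3832 CPM in PEP-WT and 2463 CPM in PEP-619WW. The ratio was 1.02 (0.936 to 1.12) without mature barcodes, of which 1 in PEP-619WW held 418 of the 1119 UMIs and 64 progenitor UMIs. In the remaining cDC the list was at 0.744 (0.682 to 0.813), with 0 of 13 higher and 3 lower, beside 5.34% and 6.36%. There 2 PEP-WT barcodes held 727 of the 1053 UMIs. The median barcode again went the other way, at 3485 CPM in PEP-WT and 3979 CPM in PEP-619WW. The ratio was 0.888 (0.787 to 1.003) without the barcodes of mixed genes. It turned to 1.25 with a marker sum of at least 1 and to 2.32 with a sum of at least 3. The other tables gave 0.888 (0.845 to 0.934) in cDC1, the opposite direction. Single barcodes weighed on these genes. *Ube2c*, a mitotic ubiquitin enzyme, had 20 UMIs in 11 of 39 and 33 UMIs in 4 of 19 cDC1, 26 of the 33 in 1 barcode. *Top2a*, encoding topoisomerase II alpha, had 59 and 41 UMIs, 30 of the 41 in 1 barcode.

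**Figure D5:**
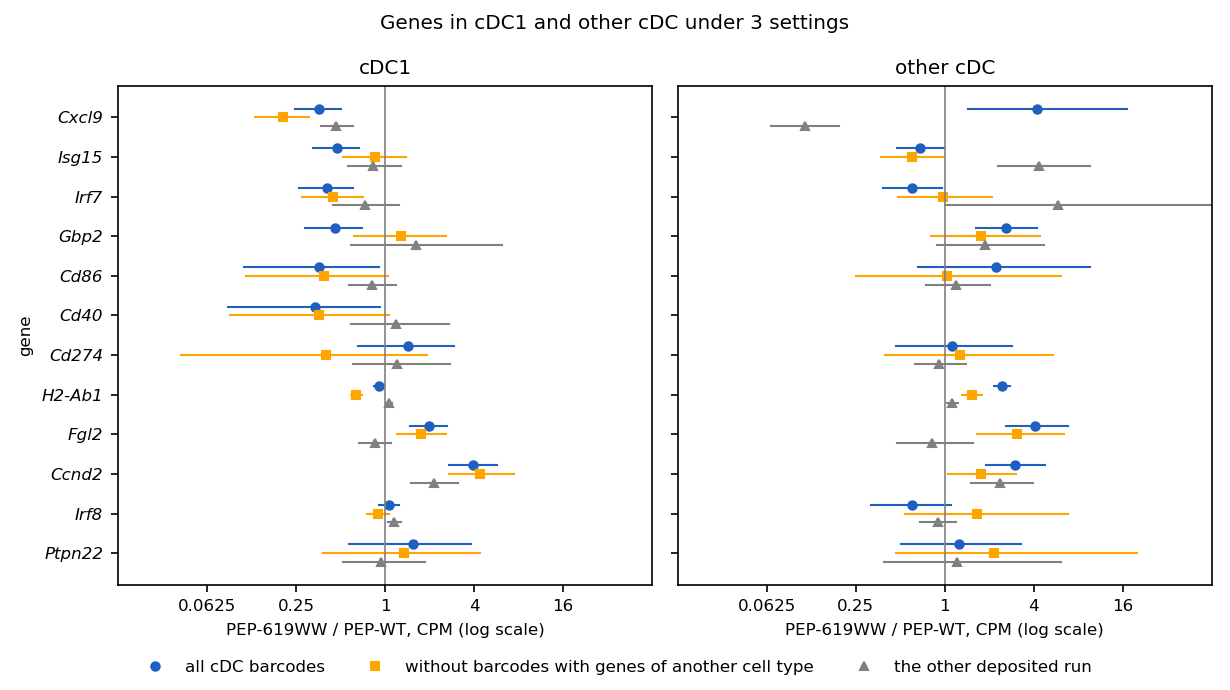
Ratio of PEP-619WW to PEP-WT CPM, on a log scale, for 12 genes in cDC1 (left) and the remaining cDC (right) with all cDC barcodes (blue), without barcodes carrying genes of another cell type (orange) and in the other deposited tables (gray). Bars are 95% counting intervals, the interval of *Irf7* in the other tables runs past the axis, and a missing symbol means too few UMIs. *Ccnd2* lay above 1 in all 6 cases, *Cxcl9* below 1 in the 3 cDC1 cases, and *Gbp2* in cDC1 and *Fgl2* in both subsets changed sides.

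The general cDC genes and the cDC1 markers also differed between libraries. The list of 14 cDC genes without the selecting genes was at 0.756 (0.722 to 0.792) in cDC1 and 1.65 (1.51 to 1.81) in the remaining cDC, and the other tables gave 1.10 (1.08 to 1.13) in cDC1. *Xcr1* alone as the marker turned the cDC1 value to 1.03 (0.972 to 1.10), and a marker sum of at least 3 turned that of the remaining cDC to 0.756 (0.660 to 0.866). Leaving out the barcodes of mixed genes gave 0.575 (0.546 to 0.605) and 1.17 (1.05 to 1.32). The single genes did not follow the sum in cDC1, where the median of 12 genes was 0.970, 6 were above and 6 below 1, and 2 were at least 2-fold higher and 0 lower, beside 2.72% and 7.66% of all genes. In cDC1 most of its UMIs came from *Cst3*, with 8269 and 1885 UMIs and a ratio of 0.704 (0.670 to 0.740). The other tables gave 1.09 (1.06 to 1.12) for *Cst3* in cDC1, and *Xcr1* alone as the marker 1.05 (0.982 to 1.11). In the remaining cDC *Itgax*, encoding CD11c, had 8 and 30 UMIs, a ratio of 3.02 (1.35 to 7.63) that was 1.95 (0.735 to 6.54) without the barcodes of mixed genes, and *Kmo*, a tryptophan pathway enzyme, 3 and 26 UMIs, while *Traf1*, a signaling adaptor, had 36 and 3 UMIs. The cDC1 markers were at 0.859 (0.784 to 0.940) in cDC1, with 0 of 13 genes at least 2-fold higher and 3 lower, beside 2.72% and 7.66% of all genes, and at 1.20 (1.13 to 1.27) in the other tables and 1.07 (0.940 to 1.20) with *Xcr1* alone as the marker. *Cadm1*, an adhesion molecule that binds CRTAM on T cells, had 59 UMIs in 20 of 39 and 7 UMIs in 3 of 19 cDC1, a ratio of 0.367 (0.141 to 0.803), and *Cd8a* was at 0.456 (0.234 to 0.821). *Xcr1*, which the rule used, was at 0.499 (0.299 to 0.795), at 1.02 (0.785 to 1.33) in the other tables and at 1.30 as a mean over barcodes. *Batf3* was at 1.34 (0.888 to 2.00) in cDC1. The cDC2 markers were at 1.10 (0.921 to 1.30) in cDC1. In the remaining cDC they were at 0.797 (0.688 to 0.923), below 1 where the general cDC genes lay above it.

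Immediate early and stress genes, which respond to signaling within minutes and to tissue handling, were lower in PEP-619WW in both subsets, at 0.698 (0.635 to 0.765) in cDC1 and 0.684 (0.610 to 0.767) in the remaining cDC. Of 15 genes in cDC1 0 were at least 2-fold higher and 5 lower, beside 2.72% and 7.66% of all genes, and of 13 in the remaining cDC 0 and 4, beside 5.34% and 6.36%. *Fos* had 168 UMIs in 25 of 39 PEP-WT cDC1 and 18 UMIs in 7 of 19 PEP-619WW cDC1, a ratio of 0.331 (0.192 to 0.539). Without the barcodes of mixed genes the list was at 0.923 (0.816 to 1.04) in cDC1 and *Fos* at 0.402 (0.172 to 0.842). For this list the other tables gave 0.976 (0.922 to 1.03) in cDC1 and, in the opposite direction, 1.23 (1.13 to 1.34) in the remaining cDC, where *Fos* was at 1.84 (0.872 to 4.64). The survival and death list was at 0.970 (0.844 to 1.11) in cDC1 and 0.913 (0.758 to 1.10) in the remaining cDC, and glycolysis and hypoxia genes at 0.979 (0.884 to 1.08) and 0.762 (0.668 to 0.870), the latter at 0.940 (0.770 to 1.15) without the barcodes of mixed genes. The pDC markers were at 0.979 (0.788 to 1.21) and 0.479 (0.353 to 0.647), and *Bst2*, the member with the most UMIs, is given above.

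The genes whose interval lay farthest from 1 in PEP-619WW cDC1 were *Ccl5*, *Ube2c*, *Ccnd2*, *Rgs1*, *Aebp2*, *Ifitm1*, *Nucks1*, *Ifitm6*, *Bmyc* and *Notch2* among the higher ones. *Notch2*, the receptor that cDC2 and marginal zone B cells depend on, had 22 UMIs in 20 of 39 and 24 UMIs in 9 of 19 cDC1, a ratio of 3.37 (1.81 to 6.30). The lower ones were *Retnlg*, *Chil3*, *S100a8*, *S100a9*, *Cxcl10*, *Car1*, *Lyz2*, *Ctla2a*, *G0s2* and *Hist1h1d*, of which *Retnlg*, *S100a8* and *S100a9* are neutrophil genes and *Car1* an erythroid gene. In PEP-WT cDC1 58 of the 59 *Car1* UMIs and 47 of the 48 *G0s2* UMIs were in 1 barcode. The erythroid list had 167 and 15 UMIs in cDC1 and 31 and 5 in the remaining cDC. It was also lower in PEP-619WW in the comparison gates, at 0.0803 in pDC, 0.0642 in monocytes and 0.114 in T cells. *Retnlg* had 299 UMIs in 2 of 39 PEP-WT cDC1 and none in PEP-619WW cDC1. In the remaining cDC the higher genes were *Fgl2*, *Arhgap9*, *H2-Ab1*, *Mkrn1*, *Ccnd2*, *Ppp1r14a*, *Ly86*, *H2-Eb1*, *Lbh* and *Mycbp2*. *Ly86*, encoding MD-1, the partner of the Toll-like receptor relative CD180, had 22 UMIs in 7 of 12 and 81 UMIs in 15 of 16 barcodes, a ratio of 2.97 (1.83 to 4.99). The lower ones were *Ctsg*, *Mpo*, *G0s2*, *Retnlg*, *S100a9*, *Fabp5*, *Chil3*, *Ctla2a*, *Ms4a3* and *Il1b*. *Fabp5*, a fatty acid binding protein gene, had 45 UMIs in 7 of 12 PEP-WT barcodes and 0 UMIs in PEP-619WW. At a floor of 3 UMIs it would be 18.6-fold lower, and the interval of its ratio reached up to 0.0688. The other genes named here include the neutrophil and progenitor genes described above.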

How the data were processed

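Counts of UMIs per gene and barcode were made by the authors with Cell Ranger (version 6.0.0 on mm10 in the submitters' processing notes, another version in the study's methods) from 10x Genomics 3′ libraries, and were deposited as raw whole-number counts. The tables list 32285 genes, and symbols were found for 32158. Reads shared by near-identical genes, such as *Ifit3* and *Ifit3b*, *Gbp2* and *Gbp2b* or *Iigp1* and *Gm4951*, may be split or lost in that counting. The deposited tables came in pairs, and the pair not used for the main values holds 9539 and 11029 barcodes, the cell numbers of the study's methods.

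Barcodes were used as deposited, with no added quality or doublet filter. Scrublet scores of at least 0.5, a cutoff fixed beforehand, marked 1 of 14821 and 0 of 8576 barcodes. The highest 10% of scores among the cDC were therefore left out as an alternative. Whether these scores mark doublets was not tested. UMIs were summed over the barcodes of a subset and library and divided by the subset's total (CPM). Comparison gates were set by *Siglech* (pDC), *Ly6c2* with *Csf1r* or *Ccr2* (monocytes) and *Cd3e* (T cells). The T cell gate also required no UMI of *Flt3*, *Zbtb46*, *Xcr1* and *Clec9a*, and the monocyte gate a sum of these under 2. Ratios and their intervals were run on simulated counts with known folds. These were Poisson counts drawn per gene and library, the case the intervals assume. UMIs gathered in single barcodes were not simulated, so that run cannot show whether the intervals are too narrow here. Genes named were members of 27 gene lists (475 of 486 symbols in the tables) with at least 10 UMIs. Beside these, the 10 genes per direction whose interval lay farthest from 1 among genes with at least 30 UMIs were named, without immunoglobulin, T cell receptor and hemoglobin genes, for each subset between genotypes and for cDC1 against the remaining cDC in both libraries (there also without *Xcr1* and *Clec9a*). A gene passed when it differed at least 2-fold. The members and lists were chosen with earlier results of these data known. Over 60 results, 13 alternatives were run, 1 more is not reported here, and 3 were added after the data were seen: without barcodes holding at least 10 UMIs of another cell type's genes, cDC1 by *Xcr1* alone, and without mature barcodes. Scanpy 1.11.5, SciPy 1.17.1, pandas 2.3.3, NumPy 2.4.6 and Matplotlib 3.10.9 were run in Python 3.11.15.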

Additional observations from a re-analysis of the deposited data

Results flagged for a closer look

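The ratio of PEP-619WW to PEP-WT lay on opposite sides of 1 in cDC1 and the remaining cDC for 7 gene lists whose counting intervals excluded 1 in both subsets, and the difference between the subsets was not tested, since each genotype gave 1 library. These were the general cDC genes at 0.756 and 1.65, the mature cDC genes at 4.12 and 0.351, MHC class II presentation at 0.915 and 1.84, the interferon gamma-induced genes at 0.757 and 1.32, the cytokines and chemokines at 1.70 and 0.451, the cell cycle genes at 1.38 and 0.744, and the progenitor markers at 2.01 and 0.0265, which in cDC1 had 81 of 106 PEP-WT and 64 of 69 PEP-619WW UMIs in 1 barcode each. For the general cDC genes, MHC class II, the interferon gamma-induced genes and the cell cycle genes at least 1 other setting of the rule put both subsets on the same side of 1. For the cell cycle genes the median barcode went against the summed ratio in both subsets. Of the cytokine and chemokine UMIs, 1 barcode held 322 of 407 in PEP-619WW cDC1. In the remaining cDC of PEP-WT 1 barcode held 122 of 243. The second pair of deposited tables, outside the comparisons above, held 36 cDC among 9539 PEP-WT barcodes (0.377%) and 335 among 11029 PEP-619WW barcodes (3.04%) by the same rule, which is a wider gap than the 0.344% and 0.408% reported, and it was not tested.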

How the results depend on the processing

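No paired analysis was possible because each genotype gave 1 library, and for the same reason no replicate could be left out. Over 60 results and all alternatives, 474 of 721 values lay inside the counting interval of the reported value, or within 1.5 times a reported number of genes, and 200 lay outside. The other 47 had a reported interval that excluded no difference and turned to the other side of it. Where the reported interval included no difference, a value on the other side is among the 474 or the 200. With at least 500 genes and at most 10% mitochondrial UMIs per barcode, 60 of 60 were as reported. The cause of each change below was not tested, and every value is PEP-619WW over PEP-WT, with the 2-fold counts given as higher and lower.

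Counts of genes were 300 and 490 in cDC1 and 188 and 258 in the remaining cDC at 1.5-fold, 483, 813, 416 and 446 with at least 10 UMIs, and 9, 31, 11 and 13 with at least 100 UMIs. As a mean over barcodes they were 144 and 331 in cDC1, with the interferon-stimulated list at 0.629 in cDC1 and 0.837 in the remaining cDC, MHC class II at 1.40 in the remaining cDC, and *Cd86* at 0.997 and *Xcr1* at 1.30 in cDC1. Scaling without immunoglobulin, hemoglobin, mitochondrial and ribosomal genes gave 110 higher genes and MHC class II at 0.970 in cDC1.

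A marker sum of at least 1 gave, in cDC1, the interferon-stimulated list at 0.682, MHC class II at 0.639 and 157 higher genes. In the remaining cDC it gave 0.547 and 1.38 for these lists, interferon gamma genes at 0.833, cell cycle at 1.25, *Cxcl9* at 0.368, and 113 higher and 154 lower genes. A marker sum of at least 3 gave MHC class II at 0.860 in cDC1 and, in the remaining cDC, 1.07, the interferon-stimulated list at 0.768, *Cd86* at 0.381, cell cycle at 2.32, the general cDC genes at 0.756, *Cst3* at 0.674, and 16 and 23 genes. *H2-Aa* of at least 5 gave MHC class II at 0.852 in cDC1 and 2.69 in the remaining cDC, where the interferon-stimulated list was at 1.11 and the counts 156 and 217. *H2-Aa* of at least 20 gave MHC class II at 1.04 and *H2-Ab1* at 1.07 in cDC1, and MHC class II at 1.15, *Fos* at 1.05 and 52 lower genes in the remaining cDC.

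Without the highest 10% of Scrublet scores (5 and 4 cDC left out), the interferon-stimulated list was at 0.825 and *Ccl5* at 0.929 in cDC1, and MHC class II at 2.10 and *Fos* at 1.54 in the remaining cDC. Thinning to 2000 UMIs gave a difference in cDC share of -0.137 points, and it left too few cDC for expression values.

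Of the alternatives chosen after seeing the data, leaving out barcodes with genes of another cell type gave, in cDC1, the interferon-stimulated list at 0.877, MHC class II at 0.670, *Cd274* at 0.397, *Gbp2* at 1.28, and 47 and 67 genes, and in the remaining cDC MHC class II at 1.14, and 35 and 40 genes. cDC1 by *Xcr1* alone gave, in cDC1, the interferon-stimulated list at 0.415, MHC class II at 0.960, *Cd274* at 0, the cDC1 markers at 1.07, the general cDC genes at 1.03, *H2-Ab1* at 1.12, *Cst3* at 1.05 and *Xcr1* at 1.14, and in the remaining cDC MHC class II at 1.59, *Ccl5* at 2.77 and 133 lower genes. Without mature barcodes, cDC1 had MHC class II at 1.06, *H2-Ab1* at 1.08 and *Ccl5* at 0.739, and the remaining cDC had MHC class II at 2.02. That setting also left out the PEP-619WW cDC1 barcode with 64 progenitor UMIs.

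The other deposited tables turned the most results, 24 of 59. The difference in cDC share was 2.66 points. In cDC1 the interferon-stimulated list was at 1.22, MHC class II at 1.09, MHC class I at 1.02, the costimulatory list at 1.13, cell cycle at 0.888, the cDC1 markers at 1.20, the general cDC genes at 1.10, *Cxcl10* at 1.23, *Gbp2* at 1.61, *Cd40* at 1.18, *H2-Ab1* at 1.06, *Fgl2* at 0.851, *Cst3* at 1.09 and *Xcr1* at 1.02, with 910 higher and 88 lower genes. In the remaining cDC the interferon-stimulated list was at 1.66, MHC class II at 1.14, immediate early genes at 1.23, *Cxcl9* at 0.113, *Cxcl10* at 4.68, *Isg15* at 4.37, *Irf7* at 5.79, *H2-Eb1* at 0.910, *Fgl2* at 0.822, *Ccl5* at 2.498 and *Fos* at 1.84, with 1256 higher and 250 lower genes.

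Depth limits genes such as *Ptpn22*, *Cd274* and *Cd86*, whose few UMIs in 12 to 39 barcodes leave wide counting intervals.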
